A study of Mus musculus with 21 samples.

Results

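Transcript levels of 9 genes of the AKT and mTOR kinase pathway were compared across mouse mammary tumours: Akt1, Akt2, Mtor, Rptor, Rictor, Tsc1, Tsc2, Rheb and Ddit4. They were chosen by symbol, and all 9 were found among the 24028 genes of the table and passed the filter on low counts. The 21 tumours all carried the genotype WAP-Cre/PIK3CA-H1047R, in which Cre recombinase is driven by the promoter of a milk protein gene and the transgene encodes an activated form of the PI3K alpha catalytic subunit. Vehicle tumours came from mice given DMSO, and the other 2 groups from mice given BYL719, an inhibitor of PI3K alpha. The treated tumours were labelled BYL719_Relapse or BYL719_Stable, with 7 tumours in each of the 3 groups. In the design text of the series the treated classes are named responding and stable, and whether responding tumours are the relapse tumours is not stated there. The labels give no age, dose or time on treatment. A code in the titles is shared by some tumours of a group (3 codes among vehicle, 7 among relapse and 4 among stable tumours). If it marks an animal, some tumours share one, and p-values then measure in part the spread within animals.

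PI3K makes a membrane lipid that recruits the kinase AKT. AKT inactivates the TSC1-TSC2 complex, which otherwise keeps the small GTPase RHEB from activating the kinase mTOR. mTOR works in 2 assemblies, mTORC1 with RAPTOR (Rptor), which drives protein synthesis, and mTORC2 with RICTOR, which in turn phosphorylates AKT. Much of this signalling runs through phosphorylation, which transcript counts do not measure.

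Of the 9 genes, Tsc1 rose in both treated groups and Rictor rose in stable tumours. Tsc1 was 1.44-fold higher in relapse and 1.62-fold higher in stable than in vehicle tumours, and Rictor was 1.61-fold higher in stable tumours. No member passed the test for a fall, and none passed it between relapse and stable tumours. In relapse against vehicle 1 of 9 members was called, where 11.2% of all 15792 genes tested were called (5.42% higher and 5.8% lower). In stable against vehicle 2 of 9 were called, where 15.1% of all genes were (6.9% higher and 8.16% lower). At an unadjusted p under 0.05 the counts were 4 of 9 in relapse (27.5% of all genes) and 3 of 9 in stable tumours (31.1%). Neither count stands apart from the share over all genes. A call is an adjusted p under 0.05 in the quasi-likelihood test of edgeR, fitted on all 21 tumours and adjusted over every gene tested by the Benjamini-Hochberg method. The median log2 fold change of the members was 0.13 in relapse against vehicle and 0.08 in stable against vehicle, beside -0.02 and -0.005 over all genes. Both comparisons use the same vehicle tumours.

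Total counts ran from 13337848 to 24873844 per tumour, and levels are given as CPM, counts scaled to a common library size with TMM factors. Vehicle 2, 6 and 7 had the highest summed levels of 10 basal and myoepithelial markers (such as Krt5, Krt14 and Acta2). The sums were 17690, 23523 and 10824 CPM there. In the other vehicle tumours that sum was 1279 to 5733 CPM, highest in vehicle 3. Relapse tumours had 999 to 2310 and stable tumours 247 to 1549 CPM. The sum of 12 skeletal muscle markers ran from 211 to 560 CPM in vehicle tumours, from 189 to 7753 in relapse tumours and from 222 to 4482 in the stable ones. The sum of 8 luminal markers was 1728 to 5328 CPM over all tumours. In these bulk samples, fewer cells of a type and less RNA per cell cannot be told apart. Stable 1 was the lowest or highest of its group in 8 of the 9 members, more than any other tumour (next was relapse 2, with 6).

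**Figure D1:**
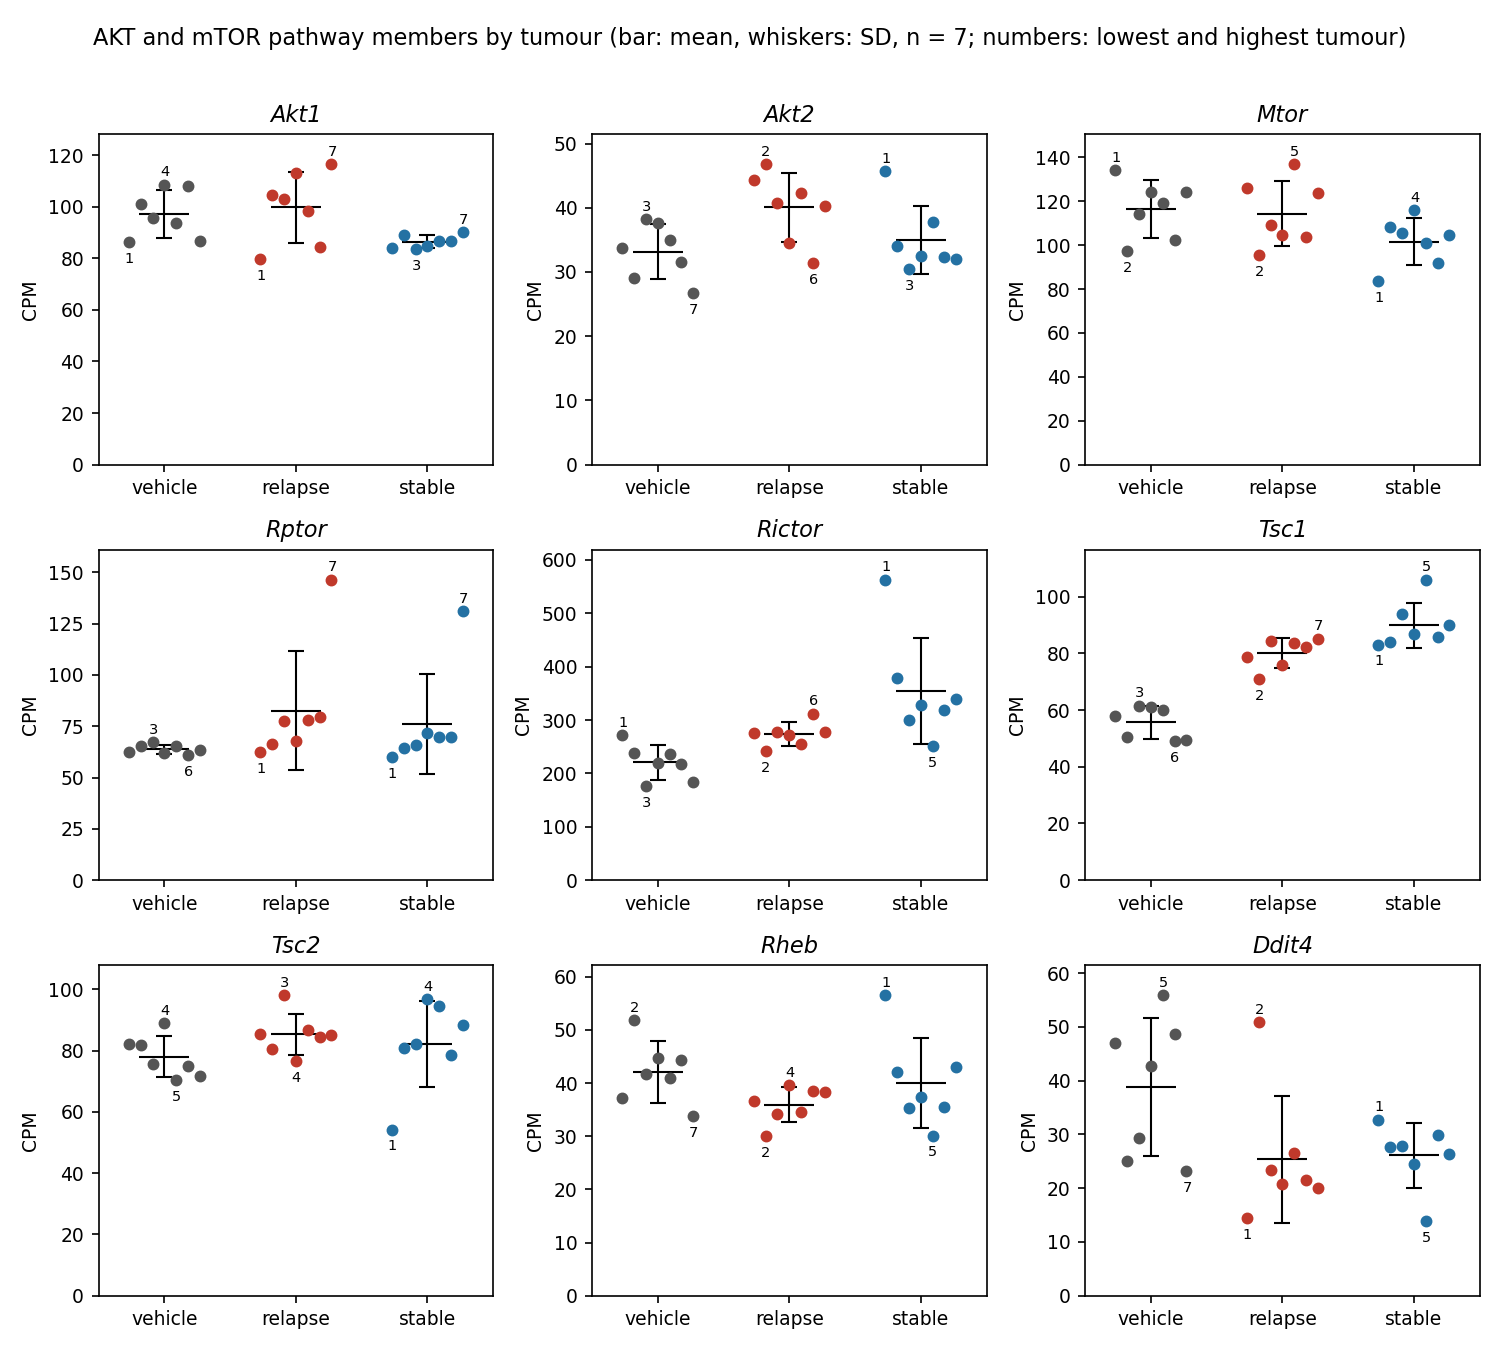
Level of each member in every tumour, in CPM, by group (7 tumours each). Points are tumours, the bar is the mean and the whiskers the SD, and the numbers name the lowest and highest tumour of a group. Tsc1 is the member whose vehicle tumours (48.9 to 61.6 CPM) lie below all relapse (70.8 to 85.2) and all stable tumours (83.1 to 106), and Rptor has 1 high tumour in each treated group.

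Akt1 and Akt2 encode AKT kinases. Akt1 ran from 86.1 to 108 CPM in vehicle tumours (median 95.7), from 79.5 to 117 in relapse (median 103) and from 83.6 to 90.1 in stable tumours (median 86.8). The groups overlapped. The log2 difference was 0.04 in relapse against vehicle (95% interval -0.14 to 0.22, edgeR adjusted p = 0.809) and -0.17 in stable against vehicle (-0.35 to 0.01, adjusted p = 0.19), and neither passed the test. The stable tumours were close together in Akt1, with a coefficient of variation of 2.89%, beside 13.8% in relapse and 9.43% in vehicle tumours. Akt2 ran from 26.7 to 38.2 CPM in vehicle (median 33.7), 31.4 to 46.8 in relapse (median 40.8) and 30.4 to 45.7 in stable tumours (median 32.5). Of the relapse tumours 6 of 7 exceeded the vehicle median, and of the stable tumours 3 of 7. The log2 fold change was 0.27 in relapse (0.04 to 0.51, edgeR adjusted p = 0.121) and 0.08 in stable tumours (-0.16 to 0.31, adjusted p = 0.671), so Akt2 was not called.

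Tsc1 encodes hamartin, the scaffold that stabilises the TSC complex. Its level was 48.9 CPM in the lowest, 58.0 in the median and 61.6 in the highest vehicle tumour. In relapse tumours it was 70.8, 82.4 and 85.2 CPM, and in stable tumours 83.1, 86.8 and 106 CPM. Every treated tumour was above every vehicle tumour. Groups that do not overlap were found for 3.01% of all genes in relapse against vehicle (1.53% higher) and 2.87% in stable against vehicle (1.56% higher), and of the 9 members Tsc1 alone had this pattern. Means were 55.7 ± 5.74 CPM (SD, n = 7) in vehicle, 80.2 ± 5.31 in relapse and 90.0 ± 7.98 in stable tumours. On the log2 scale Tsc1 rose by 0.53 in relapse (SE 0.08, adjusted p = 0.00106 by edgeR) and by 0.69 in stable tumours (SE 0.08, adjusted p = 3.5e-05). The gene lies at chr2:28640993-28691172 (GRCm38.p6).

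The call on Tsc1 held in both comparisons under all 24 alternatives. The lowest Tsc1 levels were those of vehicle 2, 6 and 7 (50.5, 48.9 and 49.6 CPM), the tumours with the highest basal and myoepithelial sums. Vehicle 3, with the next highest sum (5733 CPM), had the highest Tsc1 of the vehicle tumours (61.6 CPM). Without vehicle 2, 6 and 7 the log2 fold change of Tsc1 was 0.42 (edgeR adjusted p = 0.0178) in relapse and 0.59 (adjusted p = 0.00116) in stable tumours. With counts summed over tumours that share a title code it was 0.52 (adjusted p = 0.0127) and 0.71 (adjusted p = 0.01). No code is shared by vehicle and treated tumours. The lowest muscle sums of the treated groups were those of relapse 4 (189 CPM) and stable 2 (222 CPM). Tsc1 was at 75.9 CPM in relapse 4 and 84.2 CPM in stable 2. Any treated tumour picked would lie above the vehicle tumours, since all of them do, so these values decide nothing about muscle content. Over the 847 genes measured on chromosome 2, which holds Tsc1, the median log2 fold change was -0.06 in relapse and 0.03 in stable tumours. These medians cover the whole chromosome and cannot show a shift limited to the surroundings of Tsc1. Stable 1, in which chromosome 2 stood 0.38 above the other stable tumours, had the lowest Tsc1 of its group. Whether cell composition or a regional shift contributes to the rise of Tsc1 was not tested.

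Tsc2 encodes tuberin, the catalytic partner of hamartin, which turns RHEB off. It ran from 70.5 to 89.0 CPM in vehicle (median 75.8), 76.6 to 98.1 in relapse (median 85.1) and 54.2 to 96.8 in stable tumours (median 82.1). The groups overlapped, and the low end of the stable range was stable 1 alone, since the other 6 stable tumours were at 78.5 CPM or more. The log2 fold change was 0.13 in relapse (-0.09 to 0.34, edgeR adjusted p = 0.449) and 0.08 in stable tumours (-0.14 to 0.29, adjusted p = 0.649). Exons of Tsc2 overlap those of Pkd1 on the opposite strand by 693 bases in the GENCODE annotation, and no source used here gives the strand setting of the counting, so reads in that overlap cannot be assigned with certainty.

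The ratio of Tsc2 to Tsc1, taken within single tumours, was lower in both treated groups. The ratio of Tsc2 to Tsc1 counts was 1.17 to 1.62 in vehicle tumours (mean 1.41 ± 0.16, SD, n = 7), 0.999 to 1.16 in relapse tumours (mean 1.06 ± 0.064) and 0.652 to 1.11 in stable tumours (mean 0.913 ± 0.14). Neither treated group overlapped with vehicle. The ratio contains Tsc1, whose levels did not overlap either, while Tsc2 did not pass the test. It is therefore not a result separate from the rise of Tsc1. How often ratios of other gene pairs do not overlap was not computed. The log2 ratio fell by 0.40 in relapse and by 0.64 in stable tumours (exact permutation test, two-sided, p = 0.000583 for each, the smallest that 7 against 7 can give). The adjusted p was 0.00262 for each, over 9 tests of 3 ratios in 3 comparisons. A difference between relapse and stable tumours of 0.24 had an exact permutation p of 0.0128 (adjusted p = 0.0385) and did not hold when single tumours were left out: the adjusted p passed 0.05 in 10 of 14 such tests. Taking the mean per title code, the stable difference was -0.64 with an adjusted p of 0.0857 by the exact permutation test. With 4 stable and 3 vehicle codes there are few arrangements, so that test could hardly pass 0.05 after adjustment.

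**Figure D2:**
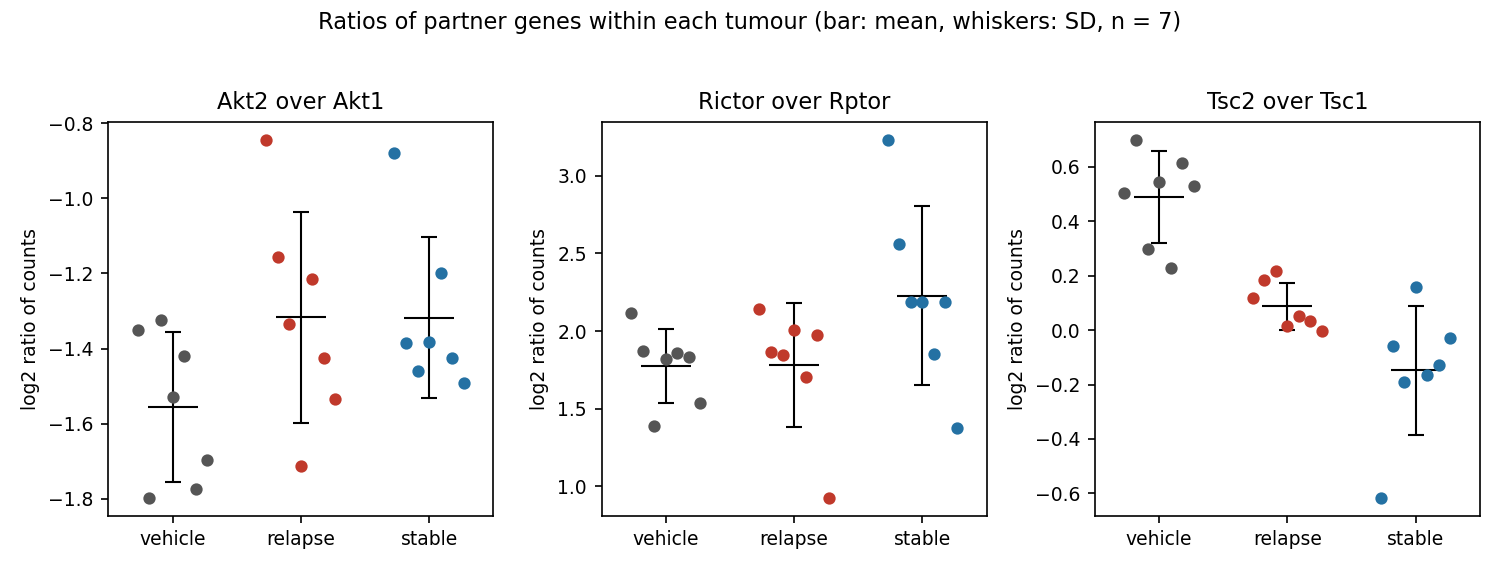
Log2 ratio of the counts of partner genes within each tumour, by group. Points are tumours (7 per group), the bar is the mean and the whiskers the SD. The Tsc2 to Tsc1 ratio of every treated tumour lies below that of every vehicle tumour, while the other 2 ratios overlap between groups.

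Rheb, the GTPase that the TSC complex switches off, did not pass the test. It ran from 33.8 to 51.8 CPM in vehicle (median 41.7), 30.0 to 39.6 in relapse (median 36.6) and 30.1 to 56.6 in stable tumours (median 37.4). All 7 relapse tumours were below the vehicle median, but the ranges overlapped. The log2 fold change was -0.23 in relapse (-0.48 to 0.03, edgeR adjusted p = 0.237) and -0.07 in stable tumours (-0.33 to 0.18, adjusted p = 0.722).

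Ddit4 encodes REDD1, a stress-induced protein that restrains mTORC1 through the TSC complex, and its transcript had the highest coefficient of variation of the 9 members in vehicle (33.2%) and relapse tumours (46.8%). It ran from 23.2 to 55.9 CPM in vehicle (median 42.6), 14.4 to 50.9 in relapse (median 21.4) and 13.8 to 32.7 in stable tumours (median 27.6). All stable tumours and 6 of 7 relapse tumours were below the vehicle median, and the exception was relapse 2. The log2 fold change was -0.61 in relapse (-1.15 to -0.08, edgeR adjusted p = 0.124) and -0.57 in stable tumours (-1.10 to -0.04, adjusted p = 0.134). Without relapse 2 it was -0.88 in relapse, with an edgeR adjusted p of 0.0196, so that tumour decided the call.

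Mtor encodes the kinase shared by both complexes. It ran from 97.2 to 134 CPM in vehicle (median 119), 95.6 to 137 in relapse (median 109) and 83.5 to 116 in stable tumours (median 105). All stable tumours lay below the vehicle median, and the ranges overlapped. The log2 fold change was -0.03 in relapse (-0.23 to 0.18, edgeR adjusted p = 0.891) and -0.20 in stable tumours (-0.40 to 0.004, adjusted p = 0.168).

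Rictor encodes the subunit that defines mTORC2. Its level was 176 CPM in the lowest, 220 in the median and 272 in the highest vehicle tumour. In relapse tumours it was 242, 276 and 312 CPM, and in stable tumours 252, 328 and 563 CPM. All 14 treated tumours were above the vehicle median, and the ranges overlapped with vehicle. Means were 221 ± 32.9 CPM (SD, n = 7) in vehicle, 274 ± 21.9 in relapse and 354 ± 99.98 in stable tumours. Rictor rose by 0.68 on the log2 scale in stable tumours (SE 0.14, adjusted p = 0.00424 by edgeR). In relapse tumours it was 0.31 (SE 0.14, adjusted p = 0.152), and the difference between relapse and stable tumours, -0.37, did not pass the test either (edgeR adjusted p = 0.99).

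Rictor was highest in stable 1, which carried the largest chromosome-wide shift in the series. For each gene, a tumour's log2 CPM was compared with the median of the other tumours of its group, leaving out genes whose mean log2 CPM was below 3. In stable 1, Rictor was 0.80 above the other stable tumours, and the median of 445 genes on its chromosome, 15, was 0.81 above. Over 20 chromosomes in 21 tumours no other median was as far from 0, and next came chromosome 14 in the same tumour at -0.56. Vehicle 2 had a chromosome 15 median of 0.46 with Rictor at 0.13, and in the remaining 19 tumours the median ran from -0.16 to 0.22. DNA was not measured, and whether the shift belongs to a change in copy number was not tested. Without stable 1 the log2 fold change of Rictor was 0.53 (edgeR adjusted p = 0.00257), so the call did not rest on that tumour. It held under all 24 alternatives, with the weakest result when counts were summed over title codes (0.64, adjusted p = 0.0493).

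Upstream sequence is shown for Rictor, the member called in stable tumours, and for Ddit4, whose inducers include hypoxia (RefSeq, GRCm38.p6). Each stretch ends before the earliest start that RefSeq or GENCODE gives the gene, and capitals mark motif matches on either strand. Rictor (chr15:6708131-6708348, plus strand, 218 bases) holds 4 matches to the GC box GGGCGG, a motif that 32.7% of 32851 promoters hold in the 250 bases before their start. In that window Rictor has 81.2% G and C, beside quartiles of 45.2% and 61.2% over all promoters. Ddit4 (chr10:59951835-59952020, minus strand, 186 bases) holds 1 GC box and 1 match to ACGTG, the core of the hypoxia response element, which 16.6% of promoters hold. Neither the FOXO motif GTAAACA (3.17% of promoters) nor the E-box CACGTG (6.02%, which contains ACGTG) was found in the 250 bases of either gene. A match is a description of letters and was not tested as a site.
Rictor: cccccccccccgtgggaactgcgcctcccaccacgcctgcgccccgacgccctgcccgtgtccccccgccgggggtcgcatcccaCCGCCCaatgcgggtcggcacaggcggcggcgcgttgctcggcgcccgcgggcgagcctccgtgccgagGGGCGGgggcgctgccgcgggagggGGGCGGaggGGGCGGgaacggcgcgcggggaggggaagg
Ddit4: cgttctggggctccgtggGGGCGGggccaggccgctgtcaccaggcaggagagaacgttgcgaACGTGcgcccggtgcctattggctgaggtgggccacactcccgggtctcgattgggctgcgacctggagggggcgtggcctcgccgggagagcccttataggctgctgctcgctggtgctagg

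Rptor encodes RAPTOR, the subunit that defines mTORC1, and its transcript set 2 tumours apart. The gene lies at chr11:119602905-119899591, and its exons overlap those of Rptoros on the opposite strand by 84 bases. Its level was 60.8 to 67.3 CPM in vehicle tumours (median 63.5), 62.5 to 146 in relapse (median 77.5) and 59.96 to 131 in stable tumours (median 69.7). Relapse 7, at 146 CPM, and stable 7, at 131 CPM, were the highest, and the next highest were relapse 6 at 79.3 and stable 4 at 71.9 CPM. The log2 fold change was 0.37 in relapse (-0.0046 to 0.75, edgeR adjusted p = 0.187) and 0.25 in stable tumours (-0.12 to 0.63, adjusted p = 0.352). Without both tumours, an alternative chosen after the data were seen, it was 0.17 (edgeR adjusted p = 0.19) and 0.08 (adjusted p = 0.523).

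The elevation of Rptor was shared by most of its neighbours on chromosome 11. Rptor lay 1.01 above the other relapse tumours in relapse 7 and 0.95 above the other stable tumours in stable 7. The 66 genes within 2 Mb of it had a median of 0.79 in relapse 7, with 58 of 66 above 0. In stable 7 the median was 0.81, with 61 of 66 above 0. The medians of the same window in the other 19 tumours ran from -0.26 to 0.26. Endov, the measured gene whose start is closest to the start of Rptor, was 0.65 above in relapse 7 and 0.89 above in stable 7. The 8 genes with the nearest starts were not all alike. In relapse 7 they ran from -0.65 (Card14) to 1.94 (Baiap2), with 7 of 8 above 0. In stable 7 they ran from 0.26 (Slc26a11) to 1.03 (Eif4a3). Over 888 genes of chromosome 11 the median was -0.004 in relapse 7, within the range of -0.14 to 0.11 of the other 19 tumours, and 0.16 in stable 7, above that range. In stable 7, the bins of 5 Mb from 75 to 105 Mb had medians of 0.13 to 0.29, and the last bins of 5 Mb, from 110 Mb on, had medians of 0.80, 0.89 and 0.89. In relapse 7 the bin from 110 Mb was at -0.11 between raised bins from 105 Mb (0.63) and from 115 Mb (0.40). Whether this reflects a change in copy number was not tested. Relapse 6, which shares its title code with stable 7, had 79.3 CPM of Rptor.

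**Figure D3:**
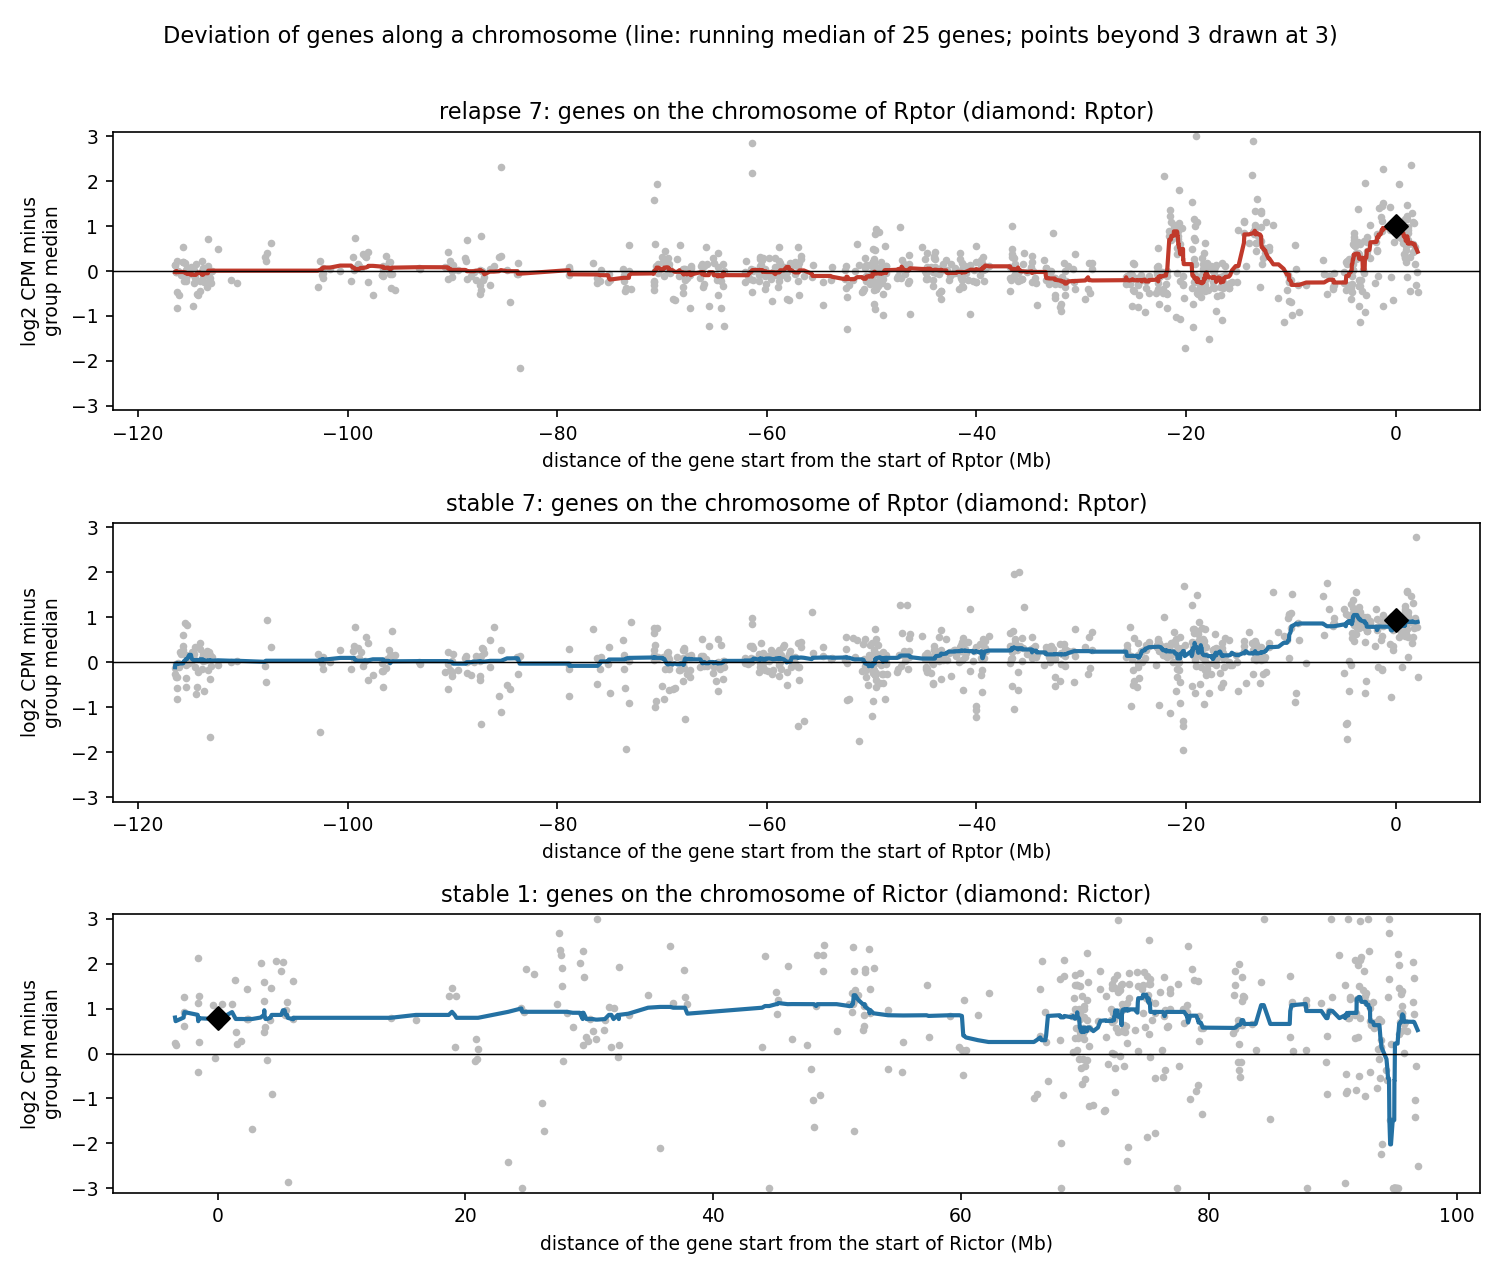
Log2 CPM of each gene minus the median of the other tumours of its group, against the distance of its start from Rptor or Rictor (Mb), for relapse 7, stable 7 and stable 1. Grey points are genes, the line is a running median of 25 genes and the diamond is the member. In relapse 7 and stable 7 most genes near Rptor are raised as Rptor is (window medians 0.79 and 0.81), and in stable 1 most of chromosome 15 is raised (median 0.81).

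The remaining ratios within tumours did not pass the test. Akt2 over Akt1 was 0.343 ± 0.047 in vehicle, 0.408 ± 0.082 in relapse and 0.405 ± 0.066 in stable tumours (SD, n = 7), with exact permutation adjusted p = 0.14 and 0.118 against vehicle. Rictor over Rptor was 3.46 ± 0.56 in vehicle, 3.54 ± 0.81 in relapse and 5.03 ± 2.18 in stable tumours, with exact permutation adjusted p = 0.994 and 0.14 against vehicle. Without stable 7, where Rptor was high, the stable difference in the log2 ratio was 0.59 in place of 0.45, with an exact permutation adjusted p of 0.0157. Without stable 1, which had the highest ratio (9.39), that difference was 0.28. Of the 14 tests that left out a single tumour, 1 passed, and the exact permutation adjusted p ran up to 0.233.

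**Figure D4:**
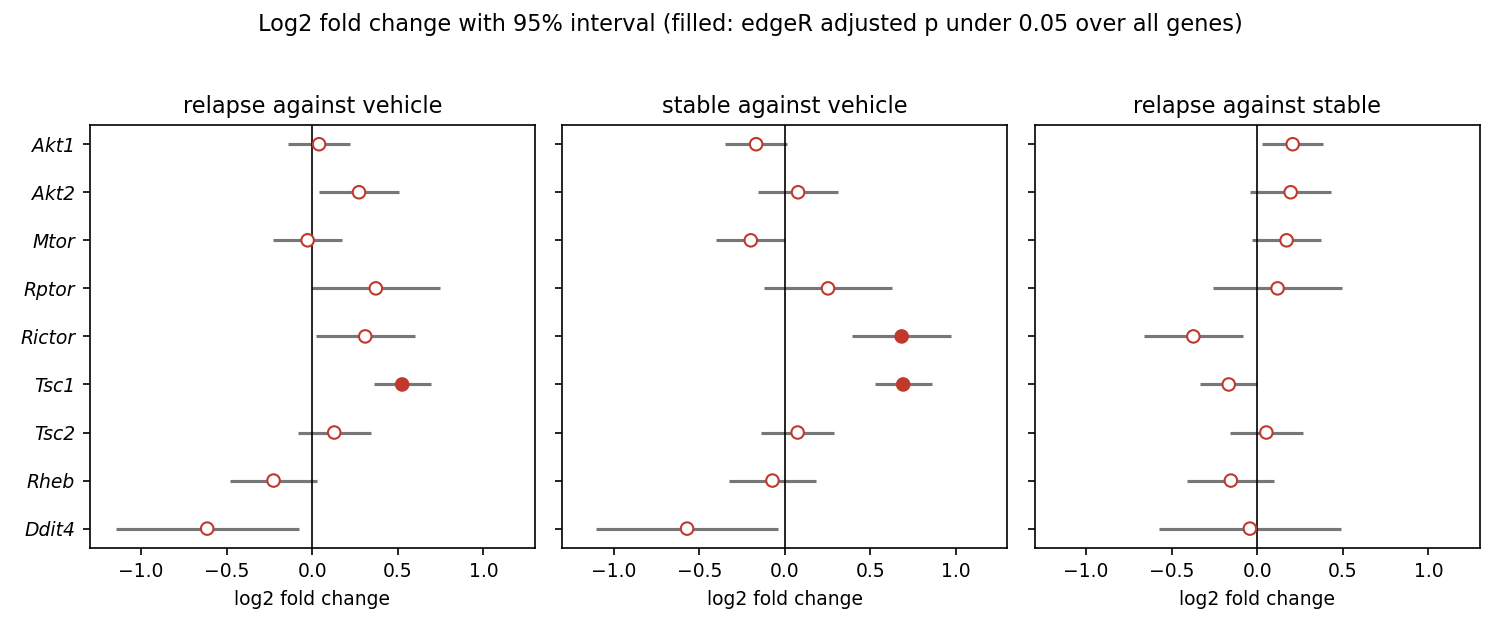
Log2 fold change of each member with its 95% interval in 3 comparisons (x axis, log2 scale). Filled points passed edgeR's adjusted p of 0.05 over all genes. Tsc1 in both treated groups (0.53 and 0.69) and Rictor in stable tumours (0.68) are filled, and no point is filled between relapse and stable tumours.

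Between relapse and stable tumours 0 of 9 members were called by edgeR, as were 0% of all genes, and 0 of 9 had groups that do not overlap (0.0823% of all genes). Unadjusted p-values under 0.05 were found for 3 members (Akt1 higher by 0.21, Rictor lower with -0.37 and Tsc1 with -0.17 in relapse) and for 4.76% of all genes. DESeq2 called 8 genes and no member. All 9 members had 95% intervals within a 2-fold difference in either direction, and 8 of 9 within 1.5-fold. In the comparisons with vehicle, intervals of 8 of 9 members lay within 2-fold in each, the exception being Ddit4.

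Compared per length, Akt1 had the highest mean level of the members in vehicle tumours. RPKM values (CPM per kilobase of gene length), computed with the gene lengths in the deposited table, were 36.1 for Akt1, 27.7 for Rheb and 23.0 for Ddit4 in vehicle tumours. Mtor, Rictor, Tsc2 and Akt2 followed at 13.2, 13.0, 12.1 and 10.01 RPKM, and Rptor and Tsc1 were lowest at 6.08 and 5.34 RPKM. The lengths are the authors', and no source used here says how they were defined. With all exon bases of the GENCODE annotation as the length, a choice made after the data were seen, the vehicle order changed: Rheb (1521 bases in the deposited table, 7721 in GENCODE) went from 27.7 to 5.45 RPKM. Akt2 (3311 and 7131 bases) was then at 4.65 RPKM, beside Tsc1 at 4.71 and Rptor at 4.74 RPKM, which differ by less than their SDs. Akt1 and Ddit4, at 23.7 ± 2.24 and 22.1 ± 7.35 RPKM (SD, n = 7), also differed by less than their SDs. Rictor was at 13.0 RPKM in vehicle tumours with either length. Mean Rictor in stable tumours was 20.9 ± 5.90 RPKM, above Mtor at 11.5 ± 1.22 RPKM. In stable tumours Rptor, at 7.24 RPKM, was below Tsc1, at 8.62 RPKM, with the deposited lengths.

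Patterns over the 21 tumours were compared as the root-mean-square distance between log2 CPM values scaled to unit SD, among 12835 genes, where unrelated patterns lie near 1.41. Closest to Rptor were Slc38a10 (0.445), Cant1 (0.449) and BC017643 (0.454). Closest to Rictor were Pnrc1 (0.321), Atf2 (0.410) and Ccng2 (0.431), and closest to Tsc1 were Marf1 (0.353), Xndc1 (0.353) and Adat1 (0.361). Tsc2 was closest to Araf (0.405), Rheb to Atf1 (0.480), Mtor to Ncoa6 (0.561), Akt2 to Ubac1 (0.628), Ddit4 to Cdipt (0.652) and Akt1 to Impdh1 (0.671). Among the members themselves the closest pair was Rictor and Tsc1, at 0.891. The nearest genes were picked from 12835 genes and this pair from the 9 members only. A search over so many more genes is likely to find a smaller distance. Setting the pair beside the nearest genes therefore cannot show whether members vary together. These distances are descriptions, since all genes share the same groups and libraries.

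The wider pathway was read from lists chosen with earlier results of these data known. Over all genes 11.2% were called in relapse and 15.1% in stable tumours, so 0 calls do not set a short list apart. Of 8 genes of AKT activation and shut-off, among them the activating kinase gene Pdpk1, edgeR called 0 in either treated group, with median log2 fold changes of 0.08 in relapse and 0.23 in stable tumours.

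Of 9 other subunits and assembly factors of the mTOR complexes, 0 passed the test in either treated group. Mlst8, a subunit of both complexes, was at 15.5 CPM in vehicle, 13.4 in relapse and 13.3 in stable tumours. Deptor, which inhibits both, had means of 184 CPM in vehicle, 117 in relapse and 170 in stable tumours (edgeR adjusted p = 0.277 and 0.864). The stable mean was raised by stable 1, which lay far above the other stable tumours. Without stable 1 the log2 fold change of Deptor in stable against vehicle was -0.61 (edgeR adjusted p = 0.176). The log2 difference between relapse and stable tumours was then -0.05. Among 3 TSC and RHEB-like genes, Rhebl1, a RHEB paralog, rose: its level was 1.20 ± 0.43 CPM in vehicle, 4.16 ± 1.32 in relapse and 7.32 ± 6.78 CPM in stable tumours. Its log2 fold changes were 1.79 (edgeR adjusted p = 0.00838) and 2.61 (adjusted p = 0.000697), with stable 1 at 22.6 CPM. Without vehicle 2, 6 and 7 the relapse change of Rhebl1 was 1.74, with an edgeR adjusted p of 0.06.

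The nutrient arm of mTORC1, which brings it to the lysosome when amino acids are present, had 8 of 26 measured genes called in relapse (4 higher and 4 lower), beside 11.2% of all genes. In stable tumours 6 of 26 were called (3 and 3), beside 15.1% of all genes. Sesn3, a sestrin, rose by 0.72 in relapse and 1.20 in stable tumours on the log2 scale (edgeR adjusted p = 0.0132 and 0.000492). Slc38a9, the lysosomal arginine sensor, rose by 0.59 and 0.85 (adjusted p = 0.0111 and 0.000991). Depdc5, part of the GATOR1 inhibitor of mTORC1, rose by 0.52 in stable tumours (adjusted p = 0.0156), and Rragd, a RAG GTPase, by 1.73 in relapse tumours (adjusted p = 0.0202). The RAG GTPases Rraga and Rragc fell by 0.65 and 0.41 in relapse and by 0.61 and 0.46 in stable tumours (adjusted p at most 0.0113). Sesn2, a leucine sensor, fell by 0.69 and 0.82 (edgeR adjusted p = 0.0127 and 0.00433). Of these genes, Sesn3, Slc38a9 and Sesn2 in stable tumours held under all 24 alternatives, as did Rhebl1. Of the 14 calls of the pathway lists in relapse, 12 were examined in this way and each was lost in at least 1 alternative. With 4 vehicle tumours in place of 7 (without vehicle 2, 6 and 7), 10 of these 12 were lost, as were 12 of 19 in stable tumours. All of the lost calls kept their direction, with log2 fold changes of 46.9% to 109% of those from all tumours in relapse and 29.3% to 118% in stable tumours. Sesn3 and Rragd in relapse, for example, were at 0.78 and 1.78 without those tumours (edgeR adjusted p = 0.0601 and 0.0833).

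Further down the pathway, 0 of 7 AMPK and LKB1 genes were called in either group. Among 18 substrates of AKT and mTORC1, Eif4ebp2, a repressor of translation that mTORC1 inactivates, rose by 0.73 in relapse and 0.77 in stable tumours on the log2 scale (edgeR adjusted p = 0.00782 and 0.00482). Without vehicle 2, 6 and 7 its changes were 0.57 and 0.61 (edgeR adjusted p = 0.0761 and 0.0542). Its paralog Eif4ebp1 did not pass the test (log2 fold changes 0.44 and 0.38, edgeR adjusted p = 0.237 and 0.279). Foxo1, a transcription factor that AKT inhibits, fell by 0.68 in relapse tumours (edgeR adjusted p = 0.0448), a call lost in 16 of 24 alternatives. In stable tumours Tbc1d4, which AKT phosphorylates to release glucose transporters, also rose by 0.45. Eif4e, Tfeb and Bad fell by 0.58, 0.79 and 0.53, and all 4 of these calls were lost without vehicle 2, 6 and 7. The log2 fold changes were then 0.53 for Tbc1d4, -0.67 for Eif4e, -0.65 for Tfeb and -0.34 for Bad (edgeR adjusted p = 0.0638, 0.0665, 0.122 and 0.228).

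Ddit4 responds to hypoxia, ATF4 and glucocorticoids, and genes induced by each were read beside it. Of 11 hypoxia-induced genes, 1 fell in relapse (5.8% of all genes did) and 4 in stable tumours (8.16%), with median log2 fold changes of -0.43 and -0.64, and 0 rose. Egln3 fell in both groups (by 1.41 and 1.36), and Vegfa, Slc2a1 and Pfkfb3 fell in stable tumours by 1.10, 0.96 and 0.64. Without vehicle 2, 6 and 7 Vegfa and Pfkfb3 were at -1.04 and -0.51 and did not pass the test (edgeR adjusted p = 0.0665 and 0.166), and Egln3 and Slc2a1 did. In stable tumours the calls of Egln3 and Slc2a1 were each lost in 9 of 24 alternatives. Ddit4 itself had differences of -0.61 and -0.57 that missed the threshold. Of 11 genes induced by ATF4, a factor of the integrated stress response, 1 fell in relapse (Vldlr), where 5.8% of all genes fell. In stable tumours 1 rose (6.9% of all genes did) and 2 fell (Vldlr and Ddit3, beside 8.16% of all genes). The call of Ddit3 was lost in 17 of 24 alternatives, and without vehicle 2, 6 and 7 Vldlr was at -0.51 in relapse and -0.54 in stable tumours (edgeR adjusted p = 0.134 and 0.102). The rise was that of Trib3, an inhibitor of AKT, by 2.31 on the log2 scale (edgeR adjusted p = 0.0284). It rested on stable 1, at 138 CPM against 4.92 to 8.29 CPM in the other stable tumours. Without stable 1 the change of Trib3 was 0.33 (edgeR adjusted p = 0.276). Of 8 glucocorticoid-induced genes, 1 (Per1, by 0.64) fell in relapse, beside 5.8% of all genes. In stable tumours edgeR called 0 of them, beside 15.1% of all genes. The call of Per1 was lost in 11 of 24 alternatives, 5 of which left out 1 tumour, and without vehicle 2, 6 and 7 its change was -0.30 (edgeR adjusted p = 0.361).

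**Figure D5:**
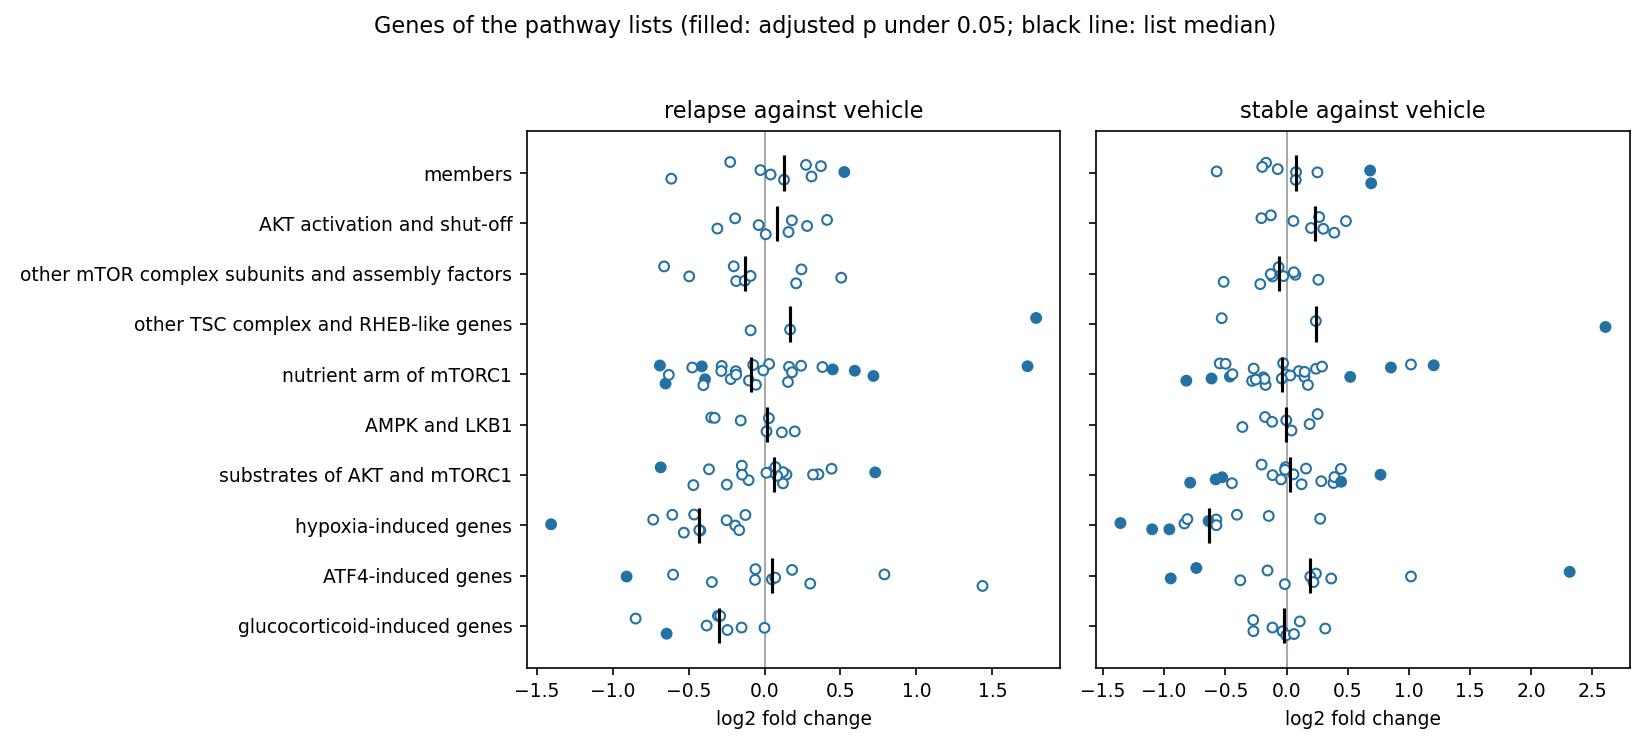
Log2 fold change (x axis) of every measured gene of the pathway lists in relapse and stable against vehicle tumours, 1 point per gene with random vertical spread. Filled points passed edgeR's adjusted p of 0.05 and black lines are list medians. The hypoxia-induced genes have the lowest medians (-0.43 and -0.64), and the nutrient arm has filled points on both sides of 0.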

How the data were processed

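Polyadenylated RNA of 21 mammary tumours was sequenced as single-end reads of 50 bases from stranded libraries, per the labels' protocols. The authors deposited raw counts for each gene, not normalized, beside a gene length, in 1 table. Per the submitters' processing notes, STAR 2.5.2a, SAMtools 1.3.1, Picard 2.9.2, edgeR and build mm10 were used; no source used here gives their roles or the strand setting. In 10202 of 24028 rows an extra leading cell was present, so rows were read from their last 25 cells. Groups were taken from the sample titles. Tumours of a group differed by a chi-square of 18.6 or more per degree of freedom, so none was a repeat of another.

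Counts were filtered with filterByExpr by group (15792 genes kept), scaled by TMM, and fitted without covariates over all 21 tumours (edgeR 4.0.16 in R 4.3.3, quasi-likelihood test). Benjamini-Hochberg adjustment ran over every gene tested. Ratios used counts plus 0.5 and exact two-sided permutation tests (scipy 1.17.1). Alternatives used DESeq2 1.42.0, limma 3.58.1, other scaling, no filter, fewer tumours and sums over title codes. The scripts were tested on simulated data. The members, lists and tests were chosen with earlier results of these data known. Named were the 9 members, 6 genes fixed by name, called genes of the pathway lists in order of adjusted p (at most 6 per list and comparison), and the 3 genes nearest to each member. Tumours, regions and neighbours that stand apart were named after their values were seen. Replicate numbers were checked over 1000 genes: in 5 of 21 same-numbered pairs the correlation of deviations was over 0.1 (range -0.42 to 0.51). Pairs with different numbers were not computed, so this check cannot decide whether the numbers pair tumours. Positions and promoter sequences are from RefSeq (GRCm38.p6), matched by identifier for 23968 genes. Some genes of the pathway are not reported here and were left out of the lists.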

Additional observations from a re-analysis of the deposited data

Results flagged for a closer look

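In each group of 7 tumours, the gap between the lowest or highest tumour and its neighbour was divided by the group's range on the log2 scale and compared with 0.568 (Dixon's 95% value) for the 9 members and 3 ratios. Of 36 such groups 5 passed, where chance passes about 1 in 20 independent groups. The ratios reuse the values of members, so the 36 groups are not independent. Rptor in relapse 7 was the highest of its group with a ratio of 0.721 (146 CPM), and Rptor in stable 7 with 0.768 (131 CPM). The Rictor to Rptor ratio of relapse 7, which contains the same high Rptor value, was the lowest of its group with 0.641 (1.90). Tsc2 in stable 1 was the lowest of its group with 0.638 (54.2 CPM). Ddit4 in stable 5 was the lowest of its group with 0.667 (13.8 CPM).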

How the results depend on the processing

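Tsc1 in both treated groups and Rictor in stable tumours kept their direction and their call in all 24 alternatives each. Log2 fold changes of Tsc1 ranged from 0.42 to 0.58 in relapse and from 0.59 to 0.74 in stable tumours, and those of Rictor from 0.53 to 0.75. The number of members called was 1 to 2 in relapse when each tumour was left out (2 without relapse 2, with Ddit4 added), 2 in stable tumours and 0 between relapse and stable tumours.

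Of the ratios, Akt2 over Akt1 between relapse and stable tumours changed sign to -0.000598 with a pseudocount of 5 and to -0.00395 with means per title code, and ran from -0.078 to 0.074 when single tumours were left out. Rictor over Rptor in relapse against vehicle was -0.000289 with means per title code and -0.016 without vehicle 2, 6 and 7, and ran from -0.059 to 0.15 when single tumours were left out. In stable against vehicle it ran from 0.28 to 0.59, and between relapse and stable tumours from -0.59 to -0.28. Tsc2 over Tsc1 in stable against vehicle was -0.64 with means per title code, with an exact permutation adjusted p of 0.0857. Between relapse and stable tumours it ran from 0.16 to 0.29 when single tumours were left out. The cause was not tested.

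The replicate block changed 2 calls among the ratios. Between relapse and stable tumours Rictor over Rptor was -0.45 with the block (exact adjusted p = 0.0469) and Tsc2 over Tsc1 was 0.24 (adjusted p = 0.0844). Members called with the block were the same in number. Whether the replicate numbers pair tumours was not settled by the check on correlations.

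Small differences changed sign. Mtor in relapse was 0.030 with upper quartile scaling, Akt1 in relapse -0.0074 without relapse 7 and stable 7, and Akt2 in stable tumours -0.033 without vehicle 2, 6 and 7. With counts summed per title code, the relapse to stable difference was 0.054 for Ddit4 and -0.0051 for Rptor. Deptor was 0.017 in relapse and 0.58 in stable tumours without vehicle 2, 6 and 7, and 0.058 in stable tumours without relapse 7 and stable 7. Mlst8 between relapse and stable tumours was -0.000728 with DESeq2 size factors, -0.00936 with no filter, -0.021 without relapse 7 and stable 7, -0.00219 by DESeq2 and -0.00209 by limma. Trib3 between relapse and stable tumours was 0.45 by DESeq2. Leaving out single tumours, ranges that crossed 0 were -0.021 to 0.088 for Akt1 and -0.076 to 0.011 for Mtor in relapse, and -0.61 to 0.077 for Deptor in stable tumours. Between relapse and stable tumours they were -0.096 to 0.29 for Rptor, -0.026 to 0.096 for Tsc2, -0.31 to 0.057 for Ddit4, -0.10 to 0.060 for Mlst8, -0.028 to 0.26 for Eif4ebp1 and -1.76 to 0.46 for Trib3.

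Over all genes, 1772 calls in relapse became 987 with the replicate block, 955 summed per title code, 527 without vehicle 2, 6 and 7, and 2870 by DESeq2, and 1160 and 1156 without vehicle 2 or 6. The 2378 calls in stable tumours became 964 with only the 2 groups compared, 1251 with the block, 592 summed, 847 without vehicle 2, 6 and 7, and 1496 and 1470 without vehicle 2 or 6. Between relapse and stable tumours 0 became 8 by DESeq2, 4 without relapse 4 and 1 without stable 5.

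Of 27 mean RPKM values (9 members in 3 groups), 18 moved by more than their SD with GENCODE exon bases as the gene length, an alternative chosen after the data were seen.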

Other observations

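Title codes are shared by relapse and stable tumours in 2 pairs, relapse 5 with stable 5 and relapse 6 with stable 7. Tsc1 was 83.8 CPM in relapse 5 and 106 in stable 5, and 82.4 in relapse 6 and 90.2 in stable 7. Rictor was 255 CPM in relapse 5 and 252 in stable 5, and 312 in relapse 6 and 340 in stable 7. Ddit4 was 26.5 CPM in relapse 5 and 13.8 in stable 5.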
